A study of Mus musculus with 6 samples.

Results

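The class I major histocompatibility (MHC) antigen presentation pathway was followed in mouse pancreatic tumour organoids through 10 named genes, H2-K1, H2-D1, B2m, Tap1, Tap2, Tapbp, Psmb8, Psmb9, Psmb10 and Nlrc5. The genes were chosen by name, and they and the other gene lists were chosen with earlier results of these data known. They were matched by symbol to 10 of the 53379 genes in the count table, and 8 of the 10 passed the filter on low counts. Psmb9 and Nlrc5 did not pass and are described by their counts. With loss of the wild-type Trp53 allele, Tapbp, Tap2 and Psmb8 transcripts were higher, whereas no member was called lower. These calls were lost with the organoid line as a block. They were also lost without any single heterozygous library, when no gene of the whole table was called either. Psmb8 reached the test only with its LOH libraries, and most Tap2 counts lay in a transcript with a retained intron. The main heavy chains and B2m had higher mean normalised counts but did not pass the test, and Nlrc5 was almost undetected in both groups.

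Class I molecules show peptides from inside the cell to CD8+ T cells. Proteasomes cut proteins into peptides, the TAP transporter carries the peptides into the endoplasmic reticulum, and tapasin holds the transporter beside empty class I molecules while peptide is loaded. A heavy chain, beta-2 microglobulin and a peptide then travel together to the cell surface. Interferon raises most genes of the pathway and exchanges the catalytic subunits of the constitutive proteasome for immunoproteasome subunits, and pancreatic tumours are known for low class I at the cell surface.

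The organoids came from KPC mouse tumours of strain C57/Bl6 and were grown in domes of matrigel. The 3 heterozygous libraries carried Trp53LSLR172H/+ and Pdx1-Cre, and the 3 libraries with loss of heterozygosity (LOH) carried Trp53 R172H without the wild-type allele, with the same Cre. Cre driven by Pdx1, a promoter of the pancreatic lineage, and the other alleles of the KPC model are therefore shared by both groups. Lines 6, 23 and 34 each gave 1 library of each genotype. The sample names of the LOH libraries carry the added word Nut, whose meaning was not given, so anything it stands for cannot be told apart from the genotype. Nothing in the labels gives separate cultures within a line and genotype, or the age of the mice.

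Library totals ran from 13680458 to 27917277 expected counts, so 3 counts correspond to 0.1 to 0.223 CPM, the count scaled to library size. Values per line are given in the order 6, 23, 34 throughout. Trp53, the gene whose allele is lost, stood at 77.3, 76.3 and 86.5 CPM in heterozygous organoids and at 73.5, 52.5 and 47.4 CPM with LOH (log2 fold change -0.47, adjusted p = 0.227). It passed only without the LOH library of line 6 (-0.72, adjusted p = 0.0368), in a fit that called 2449 of 15132 genes, against 757 of 14537 with all libraries. For Trp53 the LOH libraries all lay lower, though line 6 was close to its heterozygous partner. Epithelial markers such as Epcam and Krt19 summed to between 4719 and 5516 CPM in the heterozygous group and between 4868 and 9284 CPM in the LOH group. The 12 leukocyte markers summed to between 2.0 and 2.40 CPM in the heterozygous libraries and 4.25 to 14.9 CPM in the LOH libraries. Cd68, a lysosomal protein of macrophages that epithelial cells can also express, made up most of that sum, which without it was 0.223 to 1.28 CPM over all libraries, and Adgre1 and Tyrobp were at 0 in every library. Fibroblast markers (8 genes) stayed at or below 0.873 CPM in sum and endothelial markers (6 genes) at or below 2.91 CPM, both with higher sums in the LOH libraries. Whether other cells contribute to the class I values was not tested, and in bulk RNA fewer cells of a type cannot be told apart from less RNA per cell.

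The promoter windows of the genes the results turn on are shown because class I genes are known to share control elements near their starts. Each window runs from 250 bases before to 50 bases after the start of transcription, 5′ to 3′ on the gene's strand, in RefSeq GRCm38.p6. Capitals mark matches to an interferon regulatory factor (IRF) core, AANNGAAA, to the kappaB consensus or to the gamma-activated sequence (GAS) of interferon gamma signalling, TTCNNNGAA, each searched on both strands. Windows were found for 8 of the 10 genes, all but Tap2 and Nlrc5. The windows shown lie at chr17:34000298-34000597 on the minus strand for H2-K1, chr17:35262844-35263143 on the plus strand for H2-D1, chr2:122147437-122147736 on the plus strand for B2m, chr17:33919228-33919527 on the plus strand for Tapbp, chr17:34197945-34198244 on the plus strand for Psmb8, and chr17:34187306-34187605 on the plus strand for Tap1.
H2-K1: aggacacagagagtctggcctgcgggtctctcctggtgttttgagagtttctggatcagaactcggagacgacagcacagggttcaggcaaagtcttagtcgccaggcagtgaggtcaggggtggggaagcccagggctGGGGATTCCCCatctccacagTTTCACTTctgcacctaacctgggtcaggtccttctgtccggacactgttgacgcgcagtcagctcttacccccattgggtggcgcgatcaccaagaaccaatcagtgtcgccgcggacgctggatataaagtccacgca
H2-D1: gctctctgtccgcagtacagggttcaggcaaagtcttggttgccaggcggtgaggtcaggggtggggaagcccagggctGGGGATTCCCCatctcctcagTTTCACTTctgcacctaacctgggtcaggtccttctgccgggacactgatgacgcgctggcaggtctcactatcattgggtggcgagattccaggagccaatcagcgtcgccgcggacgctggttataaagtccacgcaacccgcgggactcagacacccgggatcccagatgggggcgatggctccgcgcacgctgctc
B2m: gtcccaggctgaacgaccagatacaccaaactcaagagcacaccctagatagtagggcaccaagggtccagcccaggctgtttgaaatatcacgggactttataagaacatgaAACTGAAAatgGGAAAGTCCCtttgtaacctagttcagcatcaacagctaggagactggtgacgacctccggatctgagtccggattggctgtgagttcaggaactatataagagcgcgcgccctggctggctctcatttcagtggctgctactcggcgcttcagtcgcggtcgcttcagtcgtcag
Tapbp: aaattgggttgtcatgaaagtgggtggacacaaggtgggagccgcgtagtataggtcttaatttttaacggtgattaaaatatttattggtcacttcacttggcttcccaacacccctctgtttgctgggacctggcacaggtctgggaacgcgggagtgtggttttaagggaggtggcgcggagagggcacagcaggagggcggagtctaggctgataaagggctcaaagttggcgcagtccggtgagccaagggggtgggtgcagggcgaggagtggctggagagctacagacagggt
Psmb8: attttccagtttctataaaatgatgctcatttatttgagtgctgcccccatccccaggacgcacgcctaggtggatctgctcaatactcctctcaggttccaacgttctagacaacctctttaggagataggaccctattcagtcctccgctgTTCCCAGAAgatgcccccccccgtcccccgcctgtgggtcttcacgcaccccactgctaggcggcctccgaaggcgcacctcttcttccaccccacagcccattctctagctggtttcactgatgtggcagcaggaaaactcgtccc
Tap1: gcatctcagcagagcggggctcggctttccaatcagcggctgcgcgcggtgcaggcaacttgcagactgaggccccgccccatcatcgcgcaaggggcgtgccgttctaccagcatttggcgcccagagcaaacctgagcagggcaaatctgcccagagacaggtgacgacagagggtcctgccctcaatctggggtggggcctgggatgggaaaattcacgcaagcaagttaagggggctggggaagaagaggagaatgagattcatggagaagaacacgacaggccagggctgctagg

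H2-K1 and H2-D1, the classical heavy chains, shared 73.3% of 240 compared bases without gaps and carried the same order of elements, a kappaB match followed by an IRF core. The kappaB match began at -111 in H2-K1 and at -171 in H2-D1, and the IRF core at -90 and -150, counted from the start of transcription in that table. B2m carried both elements in the other order, the IRF core at -137 and the kappaB match at -126. The Psmb8 window held a GAS match, TTCCCAGAA, at -97, and the Tapbp and Psmb10 windows held none of the motifs searched. Tap1 and Psmb9 are transcribed away from each other, and 275 bases of their windows, including a CRE half-site (TGACG), are the same DNA read on opposite strands. An IRF core was found in 3 of 8 members against 24.2% of 27018 mouse promoter windows, a kappaB consensus in 3 of 8 against 8.18%, a GAS in 1 of 8 against 8.47%, and a CRE half-site in 5 of 8 against 21.0%. These are matches of letters and not measured binding.

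Per transcript length, the members spanned a wide range of levels, given here as mean ± SD over 3 libraries of TPM, which scales counts to transcript length and library size. H2-K1 stood highest at 124 ± 7.78 TPM in the heterozygous and 132 ± 25.1 TPM in the LOH group, followed by H2-D1 at 99.7 ± 2.18 and 97.1 ± 14.0 TPM and by B2m at 83.9 ± 15 and 91.2 ± 18.2 TPM. H2-K1 lay above H2-D1 in every library, whereas the mean ± SD ranges of H2-D1 and B2m overlapped in both groups. Psmb10 at 18 ± 2.11 TPM and Tapbp at 17.0 ± 3.13 TPM were alike in the heterozygous libraries, whereas Tapbp at 34.6 ± 2.63 TPM stood above Psmb10 at 17.9 ± 7.23 TPM in the LOH libraries. Tap1, Tap2 and Psmb8 were near or below 2 TPM, at 1.95 ± 0.188, 0.870 ± 0.368 and 0.443 ± 0.208 TPM in the heterozygous group. Their LOH values of 1.73 ± 0.706, 1.78 ± 0.499 and 2.16 ± 1.01 TPM lay within each other's spread. Psmb9 at 0.163 ± 0.126 and 0.680 ± 0.340 TPM and Nlrc5 at 0.00667 ± 0.0115 TPM in both groups were lowest.

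**Figure D1:**
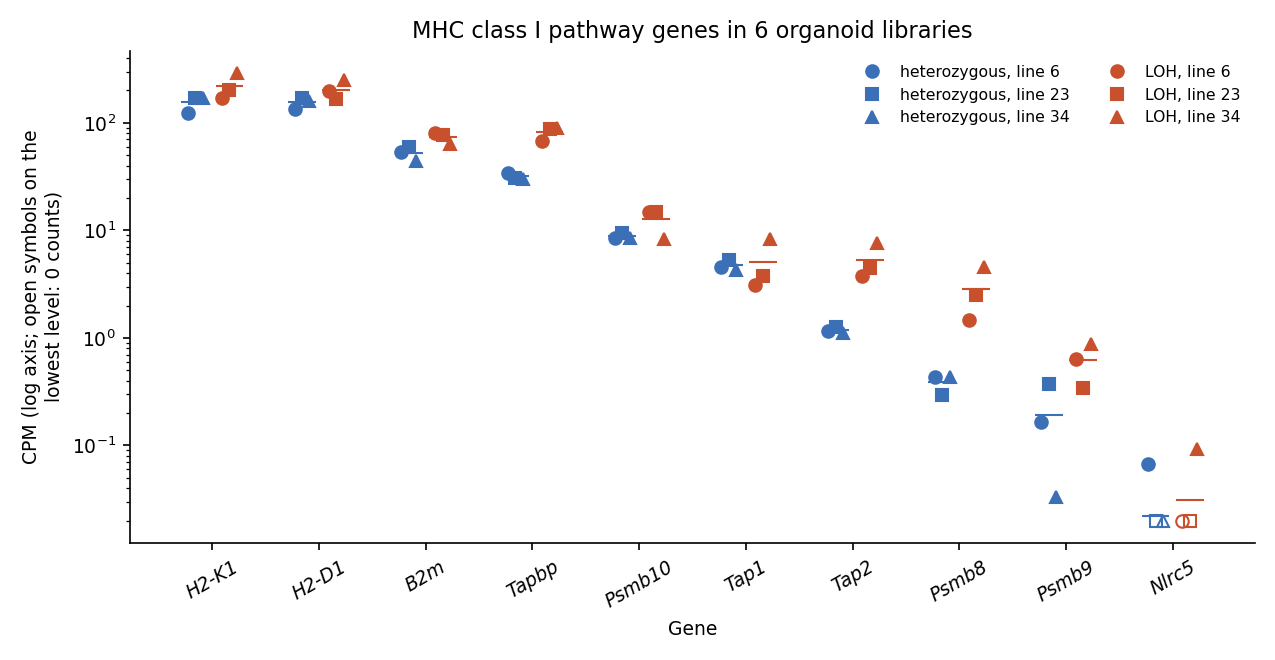
CPM of the 10 genes on a log axis, in 3 heterozygous (blue) and 3 LOH (orange) libraries, with the organoid line as the symbol, the group mean as a bar and libraries at 0 counts as open symbols at the bottom. Tapbp, Tap2 and Psmb8 show LOH values above all heterozygous values, with Tapbp at 67.8 to 89.9 CPM against 30.3 to 34.3 CPM.

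Expression was compared between the genotypes to ask which genes of the pathway differ once wild-type Trp53 is lost. Of the 8 members tested, 3 passed an adjusted p of 0.05 in edgeR's quasi-likelihood test, all higher in LOH, against a background of 5.21% of 14537 genes called in either direction (3.55% higher and 1.66% lower). The median log2 fold change was 0.51 over these 8 genes and 0.06 over all genes tested. On log2(TPM + 1) in limma these medians were 0.10 and -0.35. In 5 of the 8 every LOH library lay above every heterozygous one, which held for 16.4% of all genes tested (16.5% lay below in the same way, and 32.8% either way). Likewise 5 of the 8 were higher in all 3 lines, against 22.9% of all genes higher and 21.6% lower in all 3. Psmb8 reached the filter only with its LOH libraries, since 2 of 3 heterozygous libraries were past the minimum, so its being tested at all depended on the LOH libraries. With the organoid line as a block, 0 of the 8 were called in edgeR (1.47% of all genes were, 1.22% higher), with 3 at an unadjusted p under 0.05. Leaving out the heterozygous library of line 6, 23 or 34 left 0 members called, as did leaving out line 23 or line 34 whole. In those fits edgeR called 0 of all genes, with 2097 to 2966 at an unadjusted p under 0.05, so the loss is not particular to the members. Without the LOH library of line 23 only 1 (Tapbp) was called. The heterozygous omissions left adjusted p of 0.11 to 0.131 for Tapbp, 0.141 to 0.174 for Tap2 and 0.153 to 0.180 for Psmb8, with log2 fold changes close to those of all 6 libraries. DESeq2 called 3 of 9 members, all higher in LOH, against 8.32% of genes in either direction and 5.22% higher. Those DESeq2 shares were taken over 27027 genes without the filter on low counts, so they are not on the same base as the edgeR shares.

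**Figure D2:**
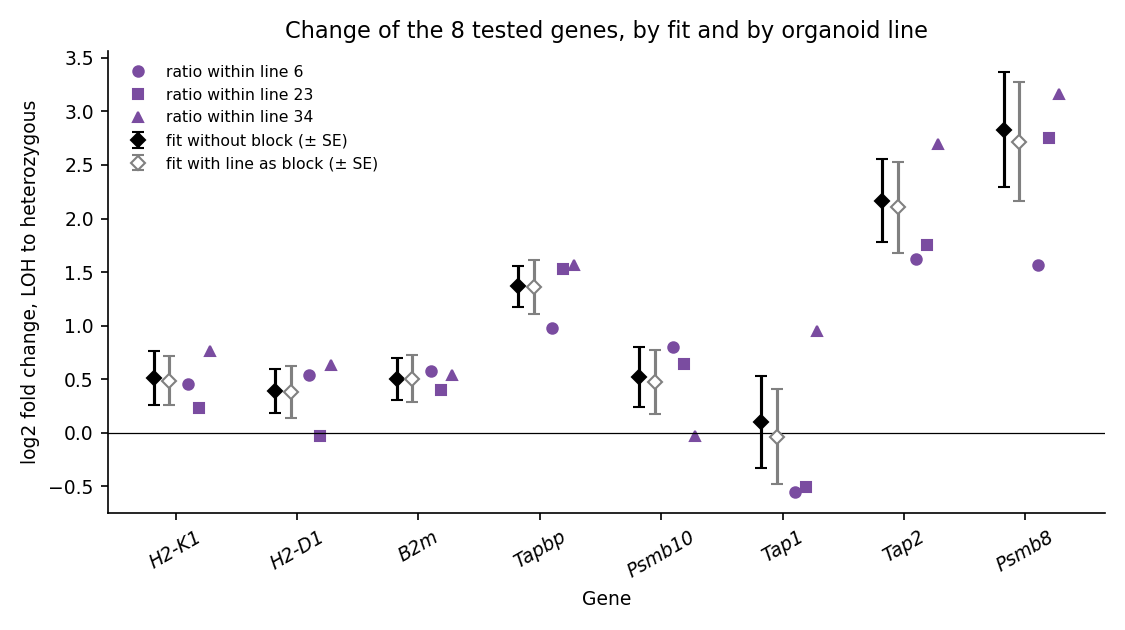
log2 fold change of LOH to heterozygous libraries for the 8 tested genes, as fitted by edgeR without (black) and with (grey) the organoid line as a block, each ± SE, and as the CPM ratio within each line (purple symbols). Tapbp, Tap2 and Psmb8 lie above 0 in all 3 lines, whereas Tap1 runs from -0.55 in line 6 to 0.95 in line 34.

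Tapbp encodes tapasin, which bridges TAP and the empty class I molecule and favours the binding of stable peptides. The gene lies on the plus strand of chromosome 17 at 33915899 to 33929292 (GRCm38), within the MHC, as do 6 of the other members. Tapbp was at 34.3, 30.5 and 30.3 CPM with heterozygous Trp53 and at 67.8, 87.9 and 89.9 CPM after its loss. The groups were well apart, and the heterozygous values were close to each other. The log2 fold change was 1.37 with an SE of 0.19 (2.58-fold, adjusted p = 0.0190), and with the line as a block it was 1.36 with an adjusted p of 0.0745. Within lines the log2 ratios were 0.98, 1.52 and 1.56, higher in 3 of 3. Protein-coding transcripts took 93.2% to 94.6% of Tapbp counts in the heterozygous and 92.4% to 92.8% in the LOH libraries, so most of the difference in counts lay in coding RNA. In TPM the coding transcript Tapbp-201 held less, at 73.9%, 75.0% and 70.8% in the heterozygous and 67.7%, 69.0% and 68.9% in the LOH libraries. The retained-intron transcript Tapbp-204 held 18.7%, 20.5% and 22.8% of TPM against 27.9%, 26.8% and 27.2%. Zbtb22, a gene on the same strand that overlaps the Tapbp locus, was at 28.8, 34.8 and 29.1 CPM in heterozygous and 29.5, 32.8 and 29.1 CPM in LOH organoids, which overlap.

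Tap1 and Tap2 encode the 2 chains of the peptide transporter, which works only as a pair. Tap1 was at 4.57, 5.34 and 4.31 CPM in heterozygous organoids and 3.09, 3.74 and 8.38 CPM after LOH. Its LOH values lay below the heterozygous ones in lines 6 and 23 and above them in line 34, and the log2 fold change of 0.10 with an SE of 0.43 did not pass (adjusted p = 0.906). That sign came from line 34: without its LOH library the log2 fold change was -0.47, without the whole line -0.54, and with the line as a block -0.04. Tap2 gave 35, 17 and 33 counts in heterozygous against 65, 118 and 164 counts in LOH organoids, or 1.17, 1.26 and 1.1 CPM against 3.78, 4.45 and 7.64 CPM. The Tap2 groups did not overlap, and the log2 fold change was 2.17 with an SE of 0.39 (adjusted p = 0.0313, and 0.0885 with the line as a block). Within lines the log2 ratios were 1.63, 1.75 and 2.70. The Tap2 to Tap1 ratio of CPM was thus 0.236 to 0.256 in heterozygous organoids against 0.911 to 1.23 with LOH, a difference of 2.06 on the log2 scale (exact permutation p = 0.1, the smallest that 3 against 3 allows, and 0.138 after adjustment over the 11 ratios compared).

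Most Tap2 counts were assigned to a transcript with a retained intron, Tap2-202, which does not encode the full transporter chain. Tap2-202 held 25.6, 15.3 and 29.3 estimated counts in the heterozygous and 50.1, 97.2 and 124 in the LOH libraries. Protein-coding Tap2 transcripts held 9.42, 0 and 3.74 counts in the heterozygous and 14.9, 20.8 and 40.1 counts in the LOH libraries, which do not overlap (exact permutation p = 0.1). On the length-scaled TPM the Tap2 difference was smaller and was not called, with a log2 fold change of 0.57 on log2(TPM + 1) in limma (adjusted p = 0.140). In limma it was 0.998 on log2(TPM + 0.1) (adjusted p = 0.161). With each library centred on its median it was 0.915 on log2(TPM + 1) (adjusted p = 0.0880). Uncentred, the median of all genes on log2(TPM + 1) was -0.35. In the heterozygous library of line 6, 1.96 counts of a short coding transcript made 0.360 TPM. In that of line 23, 1.73 counts of a short processed transcript made 0.720 TPM. What made the Tap2 difference smaller in TPM was not tested. The reads behind Tap2 were few, and its coding level rests on at most 40.1 counts in a library.

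**Figure D3:**
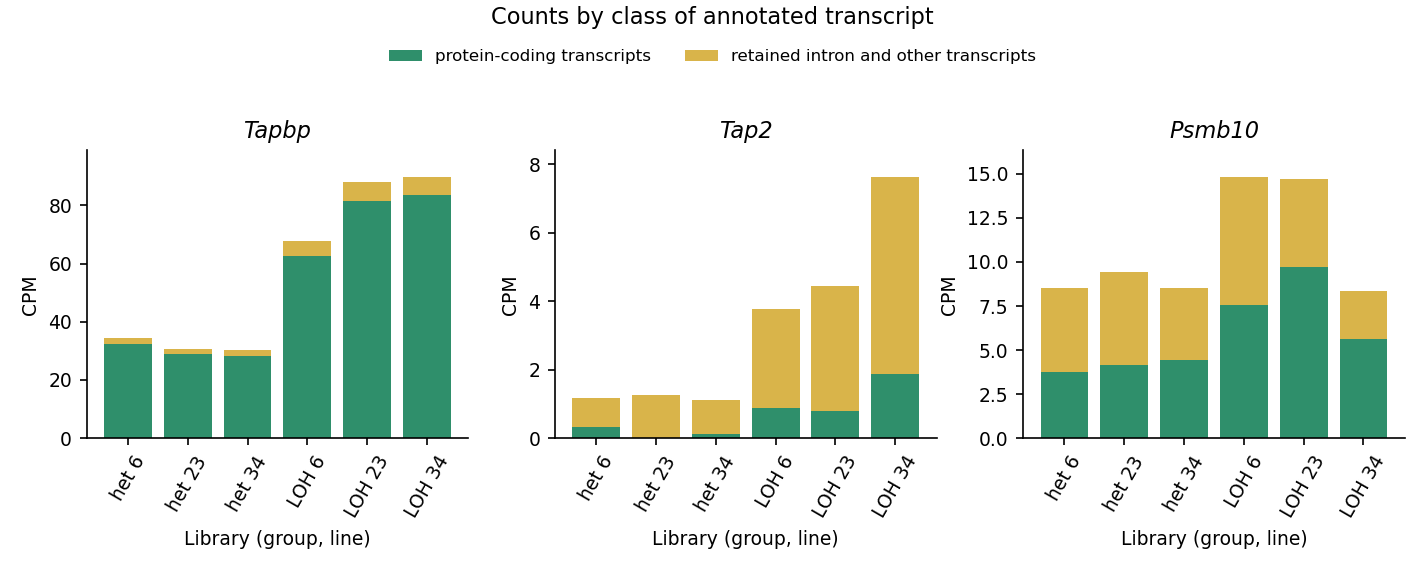
CPM of Tapbp, Tap2 and Psmb10 in each library, stacked by protein-coding (green) and retained-intron or other (yellow) annotated transcripts. By counts, though not by TPM, Tapbp is nearly all coding, and by counts Tap2 is mostly retained intron. Coding Psmb10 runs from 3.77 to 4.43 CPM in the heterozygous and from 5.63 to 9.72 CPM in the LOH libraries.

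Psmb8, Psmb9 and Psmb10 encode the catalytic immunoproteasome subunits, which take the places of Psmb5, Psmb6 and Psmb7 and alter which peptides are cut. Psmb8 gave 13, 4 and 13 counts in heterozygous against 25, 66 and 98 counts in LOH organoids, or 0.434, 0.297 and 0.434 CPM against 1.46, 2.49 and 4.56 CPM. All LOH libraries were above, least in line 6, and the log2 fold change was 2.83 with an SE of 0.54 (adjusted p = 0.0355, and 0.0885 with the line as a block). Without the LOH library of line 23 the adjusted p of Psmb8 was 0.0646 and that of Tap2 was 0.0511. Psmb9 gave 5, 5 and 1 counts in the heterozygous and 11, 9 and 19 counts in the LOH libraries, or 0.167, 0.371 and 0.0334 CPM against 0.640, 0.340 and 0.885 CPM. Those CPM values overlapped (exact permutation p = 0.2). Its protein-coding transcripts, at 0.0817, 0.173 and 0.0347 CPM against 0.640, 0.184 and 0.769 CPM, did not overlap (exact permutation p = 0.1), nor did gene-level TPM, but the heterozygous values rest on at most 2.45 coding counts in a library. Psmb9 shares its start region with Tap1 on the opposite strand, and the strand setting of the counting was not given in the sources used here.

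Psmb10, on chromosome 8 at 105935735 to 105938444, was at 8.51, 9.42 and 8.51 CPM in the heterozygous and 14.8, 14.7 and 8.34 CPM in the LOH organoids. Lines 6 and 23 were higher with LOH and line 34 was not, and the log2 fold change of 0.52 with an SE of 0.28 did not pass (adjusted p = 0.294). On log2(TPM + 1) in limma it was -0.08, a scale on which the median of all genes was -0.35. Its protein-coding transcript Psmb10-201 was at 3.77, 4.15 and 4.43 CPM in the heterozygous and 7.54, 9.72 and 5.63 CPM in the LOH libraries, without overlap (exact permutation p = 0.1). In TPM this transcript overlapped, at 4.16, 3.73 and 4.15 in the heterozygous and 6.16, 7.23 and 3.84 in the LOH libraries. The remaining Psmb10 transcripts, mostly with retained introns, overlapped between groups (exact permutation p = 1.0).

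Psmb5, Psmb6 and Psmb7 did not pass the test, with log2 fold changes of -0.18, -0.24 and -0.34. Summed in TPM, the immunoproteasome subunits amounted to 4.77%, 4.56% and 3.73% of the constitutive ones with heterozygous Trp53 and 7.20%, 10.2% and 5.53% with LOH. The LOH shares were all above, by 0.77 on the log2 scale (exact permutation p = 0.1). The immunoproteasome sum itself overlapped, at 20.01, 19.5 and 16.2 TPM with heterozygous Trp53 against 25.8, 22.3 and 14.1 TPM with LOH. The constitutive sum was lower in every LOH library, at 358, 219 and 255 TPM against 419, 427 and 434 TPM, and on log2(TPM + 1) the median log2 fold change of all genes was -0.35. By pair, the log2 difference was 2.88 for Psmb8 to Psmb5 (exact permutation p = 0.1, and 0.138 after adjustment over the 11 ratios compared). Its size is uncertain, since heterozygous Psmb8 rests on 13, 4 and 13 counts and the gene reached the filter only with its LOH libraries. For Psmb10 to Psmb7 the log2 difference was 0.69 (exact permutation p = 0.3), with mean Psmb10 TPM almost equal in both groups and Psmb7 TPM lower in every LOH library. No ratio is given for Psmb9 to Psmb6, since heterozygous Psmb9 rests on 5 counts or fewer in each library. In every library Psmb10 made up most of the immunoproteasome sum, at 9.89 to 23.9 TPM. Its protein-coding transcript Psmb10-201 held only 19.6% to 38.8% of Psmb10 TPM. Most Psmb10 TPM in that sum was thus assigned to transcripts not annotated as protein-coding.

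**Figure D4:**
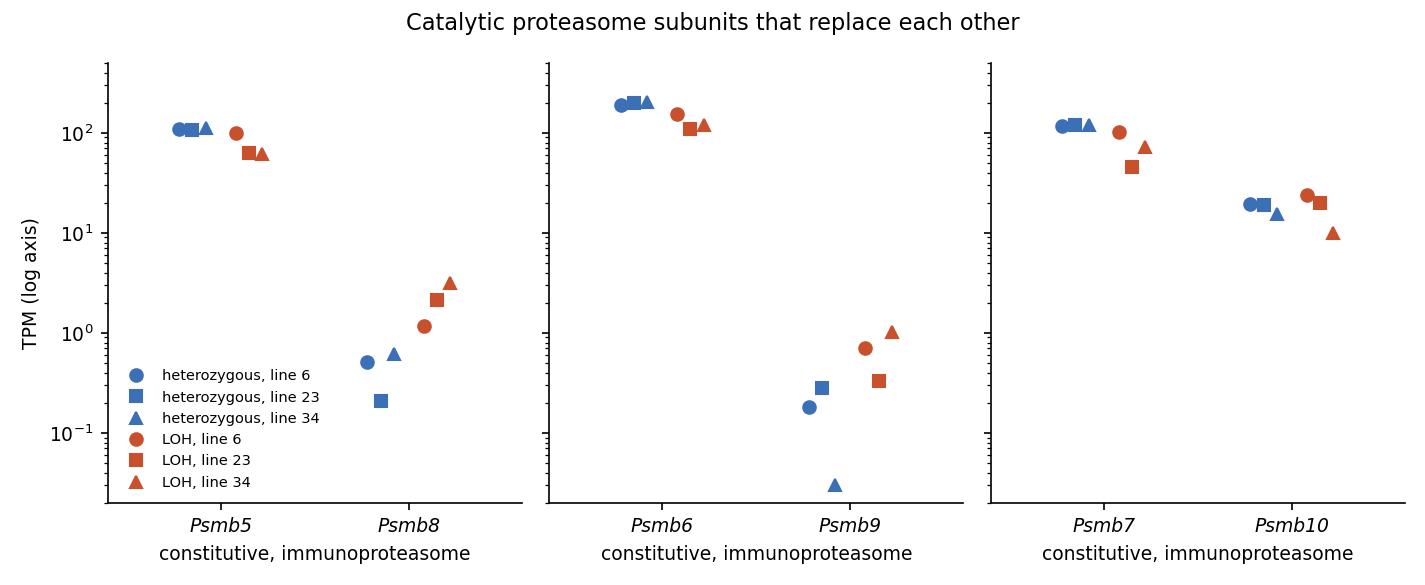
TPM on a log axis of the 3 constitutive catalytic proteasome subunits and the immunoproteasome subunits that replace them, in heterozygous (blue) and LOH (orange) libraries with the organoid line as the symbol. Psmb8 is 0.210 to 0.610 TPM in the heterozygous and 1.16 to 3.18 TPM in the LOH libraries, while Psmb5 is 106 to 111 TPM in the heterozygous and 61.7 to 100.8 TPM in the LOH libraries.

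H2-K1 and H2-D1 encode the classical heavy chains and B2m the light chain that every class I molecule needs. H2-K1 was at 125, 171 and 170.4 CPM in the heterozygous and 171, 201 and 290 CPM in the LOH libraries, where the LOH libraries lay higher by a narrow margin at the lower end. Over its protein-coding transcripts alone the groups overlapped (exact permutation p = 0.2). There LOH line 6 was at 167.80 CPM and heterozygous line 23 at 167.83 CPM. The H2-K1 log2 fold change was 0.51 with an SE of 0.25 (adjusted p = 0.259), with ratios of 0.46, 0.23 and 0.77 in lines 6, 23 and 34. This fold change was smaller at 0.26 without the LOH library of line 34, 0.33 without line 34 and 0.08 on log2(TPM + 1) in limma. H2-D1 was at 136, 171 and 160.0 CPM in the heterozygous and 197, 167 and 248 CPM in the LOH libraries, which overlap in line 23. Its log2 fold change was 0.39 with an SE of 0.21 (adjusted p = 0.287), or 0.22 without the LOH library of line 34, and on log2(TPM + 1) in limma it was -0.05, a scale on which the median of all genes was -0.35. B2m, on chromosome 2 at 122147686 to 122153083, was at 53.7, 59.0 and 44 CPM in the heterozygous and 80.0, 77.7 and 63.7 CPM after LOH. The B2m groups did not overlap, its ratios were 0.57, 0.40 and 0.53 in the lines, and the log2 fold change of 0.50 with an SE of 0.20 did not pass (adjusted p = 0.169). On log2(TPM + 1) in limma it was 0.12.

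Heavy chain genes are near copies of each other, so reads can be divided among them with error. A sum does not depend on the division among the genes summed, but reads assigned to heavy chain genes outside it are missed. Over 18 heavy chain genes the sum was 296, 391 and 374 CPM in the heterozygous and 455, 488 and 685 CPM in the LOH libraries, higher by 0.60 on the log2 scale (exact permutation p = 0.1). Summed in TPM the difference was 0.22, and in CPM without the LOH library of line 34 it was 0.42. H2-K1 and H2-D1 together made up 88.0%, 87.3% and 88.4% of the summed counts in the heterozygous and 81.0%, 75.3% and 78.5% in the LOH libraries, a difference of -9.65 percentage points (exact permutation p = 0.1). The ratio of summed heavy chains to B2m in TPM differed by 0.10 on the log2 scale (exact permutation p = 0.8) and that of H2-K1 to H2-D1 by 0.13 (exact permutation p = 0.4). Tapbp to B2m differed by 0.93 (exact permutation p = 0.1), with every LOH library above.

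Nlrc5 encodes the transactivator that assembles on class I promoters and drives heavy chain, B2m, Tap1 and Psmb9 transcription in immune cells. It gave 2, 0 and 0 counts in heterozygous organoids and 0, 0 and 2 counts with LOH. Values of this size are at or below the 3 counts that a count of 0 still allows, so no direction or fold can be given. In the 4 libraries without an Nlrc5 count, H2-K1 was at 170.4 to 201 CPM.

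Among the other class I and class I-like heavy chains, 18 of 21 were found and 12 were tested. H2-T23, which encodes Qa-1, the ligand of the CD94/NKG2A receptor of natural killer cells, was the only one called. It was at 8.31, 12.4 and 11.5 CPM in the heterozygous and 25.8, 48.4 and 61.4 CPM in the LOH libraries, all of them above. Its log2 fold change was 2.08 with an SE of 0.35 (adjusted p = 0.0279), and it passed with the line as a block too (adjusted p = 0.0429). Without the LOH library of line 23 the adjusted p of H2-T23 was 0.0604, and without any 1 heterozygous library, or line 23 or 34 whole, it was 0.120 to 0.204. The median log2 fold change of the 12 was 1.02, and in 7 of them every LOH library lay above, against 16.4% of all genes tested (5.21% were called). Near-identical sequence among the H2-T and H2-Q genes makes the single values uncertain.

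The steps around the members showed few calls. None of the 9 loading and trimming partners, which include calreticulin, calnexin and the peptidase Erap1, was called (median log2 fold change 0.11). None of 14 constitutive 20S subunits was called, with 1 of the 14 above 0 against 54.0% of all genes tested and a median of -0.28. The lines differed, with medians within lines of 0.20, -0.73 and -0.37 over these subunits, so the lower values were not shared by line 6. None of 9 activators and assembly factors was called (median -0.40). Psme1 and Psme2, the interferon-inducible PA28 activator, had log2 fold changes of 0.51 and 0.58 (adjusted p = 0.237 and 0.133). Among 15 transcription factors that bind class I promoters none was called (median 0.16). Irf1, a main activator of Psmb8, Psmb9 and Tap1, differed by 0.84 (adjusted p = 0.122). Without the LOH library of line 6, Irf1 at 1.02 (adjusted p = 0.0296) and Psme2 at 0.67 (adjusted p = 0.0449) passed. That fit called 2449 of 15132 genes, against 757 of 14537 with all 6 libraries.

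Upstream, Ifngr2, the signalling chain of the interferon gamma receptor, was the 1 call among 11 interferon receptor and signalling genes, with a log2 fold change of 1.34 (adjusted p = 0.0310, and 0.0662 with the line as a block). The median of that list was 0.47. Of 8 interferon ligands none passed the filter, and 6, Ifng and Ifnb1 among them, were at 0 in all 6 libraries. Ezh1, a catalytic subunit of polycomb repressive complex 2, rose by 0.99 (adjusted p = 0.0383, and 0.108 with the line as a block), the 1 call among 4 genes of that complex. The list median was -0.03, and Ezh2 and Eed, at -0.55 and -0.45, were lower in every LOH library without passing. The Ifngr2 and Ezh1 calls were lost under the same omissions as that of H2-T23, with adjusted p of 0.0600 to 0.213 and 0.0756 to 0.242, and that of Ezh1 also without line 6 (0.0692) and on log2(TPM + 1) in limma (0.159). Of 10 class II presentation genes 1 was tested and not called, and 5, including H2-Aa and H2-Eb1, were at 0 in every library.

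**Figure D5:**
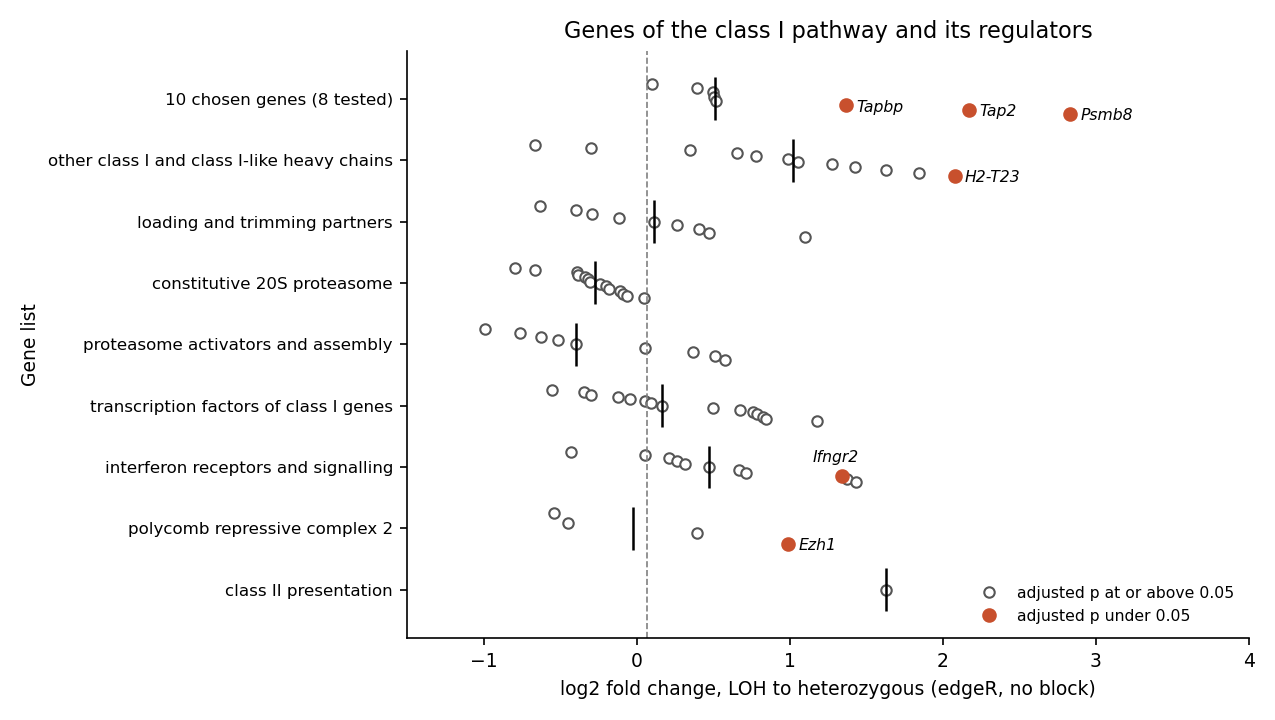
Fitted log2 fold change, LOH to heterozygous, of each tested gene in the member list and in the other gene lists of the pathway, with called genes filled and named, the list median as a black bar and the median of all genes tested, 0.06, as a dashed line. Calls are Tapbp, Tap2 and Psmb8 among the members and H2-T23, Ifngr2 and Ezh1 elsewhere. In this fit 13 of the 14 constitutive proteasome subunits lie below 0, against 46.0% of all genes tested. Their median ratio within line 6 was above 0, at 0.20.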

How the data were processed

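Total RNA from 6 organoid cultures, 3 heterozygous and 3 LOH, went into strand-specific libraries, per the labels' protocols. FastQC 0.11.5, STAR 2.5.2b, RSEM 1.3.0, DESeq2 1.44.0 and GRCm38.p5 are named in the submitters' processing notes. The authors deposited RSEM expected counts per gene and per transcript, with TPM, as the file headers give them. FPKM values and the percent of a gene's TPM in each transcript were also made by RSEM and deposited, and were not used in any test. The authors' normalized signal, expected counts divided by 1 size factor per library, served for gene symbols only. Coordinates come from GENCODE M21 (GRCm38).

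Expected counts were rounded and fitted with edgeR 4.0.16 (quasi-likelihood, filterByExpr, TMM, two-sided, Benjamini-Hochberg over 14537 genes, threshold 0.05). Group was the only term. CPM were computed on TMM-scaled library sizes. Single values used two-sided exact permutation tests. Lines pair the libraries by their titles, so the fit with the line as a block stands beside the calls it changes; same-line deviations correlated at -0.30, 0.01 and 0.29. Members and lists were chosen with earlier results of these data known. Named genes are the members, Trp53, up to 4 called genes per list, 6 preset pathway genes (a further one is not reported here) and the 5 nearest expression profiles. Alternatives were DESeq2 1.42.0, limma 3.58.1 on log2(TPM + 1) and log2(TPM + 0.1), other scalings and filters, and leaving out libraries. On simulated counts for 14025 genes, edgeR without the block called 2 of 66 genes changed 2-fold, 31 of 67 changed 4-fold and 59 of 67 changed 16-fold. With the block it called 0 of 66, 17 of 67 and 52 of 67. The simulated counts held no differences between lines. P-values measure the spread between these libraries. Each line gave 1 library of each genotype, so within a group differences between lines and technical differences cannot be told apart.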

Additional observations from a re-analysis of the deposited data

Results flagged for a closer look

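Within lines, 3 members had a log2 CPM ratio of LOH to heterozygous of opposite sign in different lines. H2-D1 ran from -0.03 in line 23 to 0.63 in line 34, Tap1 from -0.55 in line 6 to 0.95 in line 34, and Psmb10 from -0.03 in line 34 to 0.80 in line 6. These differences among lines were not tested, for want of a second library of each genotype in any line.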

How the results depend on the processing

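Over all genes, 757 were called (516 higher, 241 lower). The count was 213 with the line as a replicate block, 2249 with DESeq2, 1911 (280 higher, 1631 lower) with limma on log2(TPM + 1), where the median of all genes was -0.35, and 1753 on log2(TPM + 0.1), where it was -0.42. Leaving out libraries gave 0 to 2449 calls. The count was 0 without the heterozygous library of line 6, 23 or 34 (2966, 2637 and 2272 genes at an unadjusted p under 0.05) and without line 23 or 34 (2253 and 2097). It was 2449 without the LOH library of line 6, 451 without that of line 23 and 1422 without line 6. Members called numbered 3, with 0 under the replicate block and 0 to 3 with libraries left out. The median log2 fold change of the members was 0.10 in limma on either TPM scale, and 0.44 on log2(TPM + 1) with libraries centred, an alternative chosen after seeing the data. Some genes that were not called changed sign. On both TPM scales H2-D1 was at -0.0469 and -0.0474, Psmb10 at -0.0819 and -0.0915, and Tap1 at -0.14 and -0.23. On log2(TPM + 1) with libraries centred these genes were above 0, at 0.29, 0.26 and 0.20. Tap1 was at -0.0401 with the block, -0.47 without the LOH library of line 34 and ran from -0.54 without line 34 to 0.37 without line 23. The causes were not tested. Psmb9 and Nlrc5 had too few counts for the test.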

Other observations

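The expression profile over 6 libraries that lay nearest to the mean profile of the tested members, among 9996 genes averaging 5 CPM or more, was that of Lrig2, a regulator of growth factor receptors, with a root mean square difference of 0.0547 on the log2 scale. Anxa11, a calcium-dependent membrane-binding protein, followed at 0.0563, then 9130008F23Rik at 0.0670, Pde4dip at 0.0753 and the adiponectin receptor gene Adipor2 at 0.0816. The likeness describes these 6 libraries and was not tested. Anxa11 was at 71.9, 79.1 and 69.7 CPM in the heterozygous libraries and 129, 145 and 191 CPM in the LOH libraries.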
